A study of Danio rerio with 2 samples.

Results

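The genes described here encode core parts of autophagy, in which a cell encloses cytoplasm in a double membrane, the autophagosome, and delivers it to the lysosome. Small ubiquitin-like proteins of the Atg8 family (GABARAP and LC3 proteins) are joined to lipid on that membrane, and cargo receptors such as the product of sqstm1 bridge them to ubiquitin-tagged proteins, organelles or aggregates. In liver, autophagy turns over organelles and stored nutrients, and in mammals the sqstm1 protein also binds KEAP1, the inhibitor of the antioxidant transcription factor NRF2. Roles given below are those known from yeast and mammals.

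The list was set by name and held 8 genes: sqstm1, gabarapa, gabarapl2, map1lc3a, map1lc3b, becn1, atg5 and atg3. Transcripts were assigned to genes by matching their RefSeq accessions to current zebrafish symbols, which found 7 of the 8. Of 17991 transcript rows, 9463 matched a symbol. Rows without a symbol were kept under their GI number and counted as genes, giving 17963 genes in all. Shares over all genes below include such rows. The current RefSeq accession of sqstm1 matched no row, so sqstm1 was not analysed here. Rows under an older accession or a GI number alone would be missed, for sqstm1 as for any other symbol without a match. Each of the 7 was represented by 1 transcript row, and all 7 were among the 7839 genes that had at least 10 tags over both libraries.

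Liver RNA of 3-month-old wild-type zebrafish came from siblings exposed to sodium arsenate for 96 h, in 3 L tanks of around 15 adults, and from siblings kept in water. Each condition gave 1 library of 3′ SAGE tags, short sequences read from the 3′ end of transcripts, with 4420935 tags for arsenate and 2592679 for water. The labels used here do not give the arsenate dose, the sex of the fish or the number of livers behind each library. With 1 library per condition no difference below has a replicate check, and every interval is a 95% interval that covers counting error only. Levels are in RPM, counts of a gene's tags divided by all tags of its library and brought to one common sum, with 1 tag equal to 0.226 RPM for arsenate and 0.386 RPM for water. The libraries are called arsenate liver and water liver from here on.

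The libraries differed in the tissue markers they held. All 13 matched markers of the exocrine pancreas were at least 2-fold lower in arsenate liver, and their summed level was 3164 RPM in arsenate liver, against 37844 RPM in water liver, with prss59.1 the most abundant in water liver and prss1, at 868 RPM, in arsenate liver, and none at 0. Of 6 matched testis markers 4 had at least 10 tags, all 4 of them lower, with a summed level for the 6 of 1.58 RPM in arsenate liver, against 304 RPM in water liver, where insl3 was the most abundant. The testis markers ddx4 and piwil1, listed at 0 in arsenate liver, had only 4 and 3 tags in water liver. Both were under the minimum of 10 tags. Hepatocyte markers stood at 33368 RPM in arsenate liver, against 113379 RPM in water liver, mostly from fabp10a, and 4 of the 5 matched were within 2-fold. Of the 5, only cp had a ratio above 1, at 1.31 (1.25 to 1.38), and the other 4 had ratios below 1. In bulk tissue, fewer cells of a type and less RNA per cell cannot be told apart. The part of these tissues in the autophagy values was not tested.

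Among the core genes, gabarapa and map1lc3b were higher in arsenate liver, with ratios above 2 and intervals above 1, and gabarapl2 was lower from few tags. The ratios of map1lc3a, atg3 and atg5, between 1 and 2, and that of becn1, above 2, had intervals that included 1. With a threshold of 2 for the quotient of RPM + 1 upward and 0.5 downward, 2 of the 7 were higher, 1 was lower and 4 were neither. The same rule placed 15.6% of all 7839 genes higher and 14.4% lower. The median log2 ratio of RPM + 1 was 0.77 over the 7 genes and 0.04 over all genes tested, and 6 of the 7 ratios were above 1, against 52.0% of all genes. The genes were chosen with earlier results of these data known, so these comparisons with all genes are not independent of the data. An exact binomial test on the tags compares the pair of libraries and says nothing of fish-to-fish variation; it named the same 3 genes when a ratio of at least 2-fold was also required. It called 13.8% of all genes higher and 13.6% lower.

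**Figure D1:**
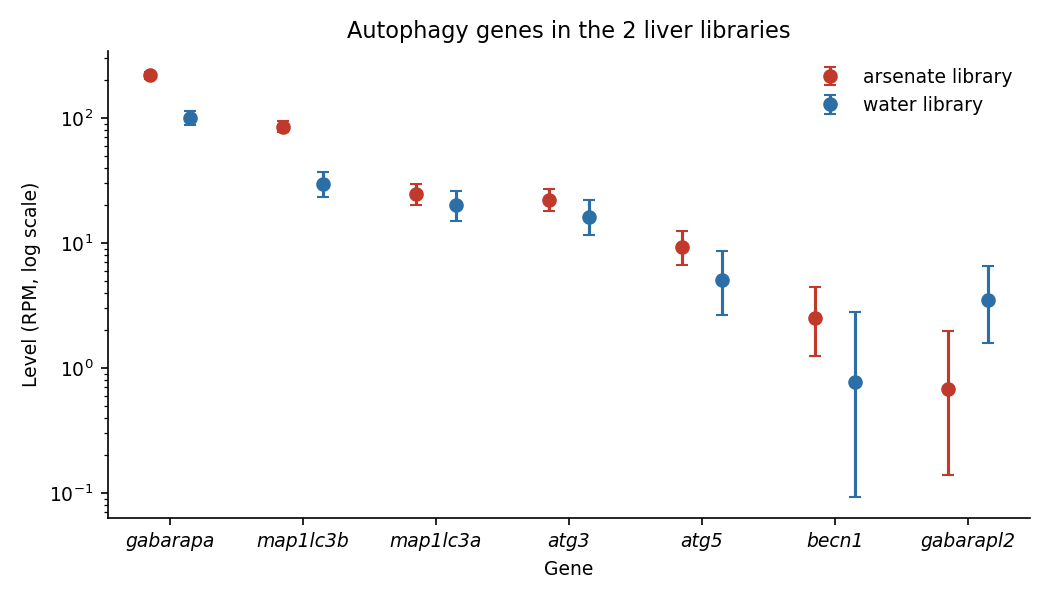
Level of each core autophagy gene in RPM on a log axis, in arsenate liver (red) and water liver (blue), with exact Poisson 95% intervals for counting error; there is 1 library per condition. The red points lie above the blue ones for all genes except gabarapl2, and the intervals of the pair separate for gabarapa and map1lc3b.

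The Atg8 proteins come first, since they mark the autophagosome membrane. The gene gabarapa encodes a GABARAP-type Atg8 protein. It stood at 219 RPM (206 to 234) in arsenate liver, from 970 tags, and at 100.3 RPM (88.5 to 113) in water liver, from 260 tags. This was a 2.19-fold higher level (1.91 to 2.52) whose lower bound lies under 2-fold, with a Benjamini-Hochberg adjusted p of 9.23e-32 in the exact binomial test. Its ratio was at percentile 86.7 of all genes tested, so many other genes in these libraries differed by more.

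The gene map1lc3b encodes an LC3 protein, the type of Atg8 protein most used as a marker of autophagosomes. It stood at 85.0 RPM (76.7 to 94.1) from 376 tags in arsenate liver, against 29.7 RPM (23.4 to 37.1) from 77 tags in water liver. The arsenate level was 2.86-fold higher (2.24 to 3.71), with an adjusted p of 1.70e-19 in the exact binomial test, and lay at percentile 92.3 of all genes. Among the 7 genes, map1lc3b alone had an interval of the RPM ratio that was above 2 throughout.

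The other LC3 gene, map1lc3a, did not show a difference of that size. It had 24.7 RPM (20.2 to 29.7) from 109 tags in arsenate liver, against 20.1 RPM (15.0 to 26.3) from 52 tags in water liver. The ratio of 1.23 (0.876 to 1.75) had an interval that included 1 and ended below 2. The ratio of map1lc3b was 2.33 times that of map1lc3a (1.51 to 3.58), and the ratio of gabarapa 1.78 times that of map1lc3a (1.22 to 2.57). Such ratios between genes do not depend on how the libraries are scaled. The ratios of map1lc3b and gabarapa could not be told apart by tag counts, at 1.31 times (0.982 to 1.76).

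The gene gabarapl2, which encodes a GABARAP-like Atg8 protein also linked to transport within the Golgi, went the opposite way. It had 3 tags, or 0.679 RPM (0.140 to 1.98), in arsenate liver, against 9 tags, or 3.47 RPM (1.59 to 6.59), in water liver. The ratio was 0.195 (0.0340 to 0.783), with an adjusted p of 0.0322 in the exact binomial test. With only 3 tags in arsenate liver and 9 in water liver, the size of this difference was poorly determined. The gene was no longer at least 2-fold lower with a pseudocount of 5, and with a minimum of 50 tags it was not counted.

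As a family, the matched Atg8 genes, with map1lc3c included, held 330 RPM in arsenate liver, against 155 RPM in water liver, a ratio of 2.13 (1.91 to 2.39). Without gabarapa the ratio of the remaining sum was 2.03 (1.68 to 2.47). That remainder was mostly map1lc3b, with 376 of 488 tags in arsenate liver, against 77 of 141 in water liver. The higher sum thus rests on gabarapa and map1lc3b, as map1lc3a had an interval that included 1 and gabarapl2 was lower. Beside the core genes, 4 other Atg8 genes were listed, of which 3 matched no row and are not in the shares that follow. Of all tags of the matched Atg8 genes gabarapa held 66.5% (64.0 to 69.0) in arsenate liver, against 64.8% (59.9 to 69.5) in water liver. The share of map1lc3b was 25.8% (23.6 to 28.1) in arsenate liver, against 19.2% (15.5 to 23.4) in water liver. For map1lc3a it was 7.48% (6.18 to 8.95) in arsenate liver, against 13.0% (9.84 to 16.7) in water liver. The main part of the matched tags was gabarapa in either library, while the intervals of the map1lc3a and map1lc3b shares did not overlap between the libraries. The gene map1lc3c had 0 tags in arsenate liver, against 3 in water liver, for which no ratio is given. Tags of Atg8 genes could be shared with close copies such as gabarapb, which matched no row, so the values of single genes are uncertain to that extent.

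The genes for the step that attaches Atg8 proteins to lipid, atg3 and atg5, had ratios between 1 and 2. The gene atg3 encodes the E2-like enzyme that carries Atg8 to the membrane. It had 22.2 RPM (17.997 to 27.0) from 98 tags in arsenate liver, against 16.2 RPM (11.7 to 21.9) from 42 tags in water liver, a ratio of 1.37 (0.944 to 2.01). The gene atg5 encodes the partner joined to Atg12, which guides that transfer. It had 9.27 RPM (6.66 to 12.6) from 41 tags in arsenate liver, against 5.01 RPM (2.67 to 8.57) from 13 tags in water liver, a ratio of 1.85 (0.972 to 3.76). Both intervals included 1 and reached above 2, so neither equal levels nor a 2-fold difference was outside the counting error. Adjusted p-values in the exact binomial test were 0.181 for atg3 and 0.104 for atg5.

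The gene becn1 encodes beclin, a regulatory subunit of the lipid kinase complex that starts the membrane. It had 11 tags, 2.49 RPM (1.24 to 4.45), in arsenate liver, against 2 tags, 0.771 RPM (0.0934 to 2.79), in water liver. The ratio of 3.23 was the highest of the 7 genes, but its interval (0.704 to 29.9) included 1, and the exact binomial test gave an adjusted p of 0.259. On the scale of RPM + 1 the ratio was 1.97, just short of the 2-fold rule, and the call depended on the setting. It passed with TMM scaling (a trimmed mean of gene ratios), with a pseudocount of 0.1 and with totals that leave out the most abundant genes. It did not pass with median-of-ratios size factors, and with a pseudocount of 5 the ratio was 1.30.

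**Figure D2:**
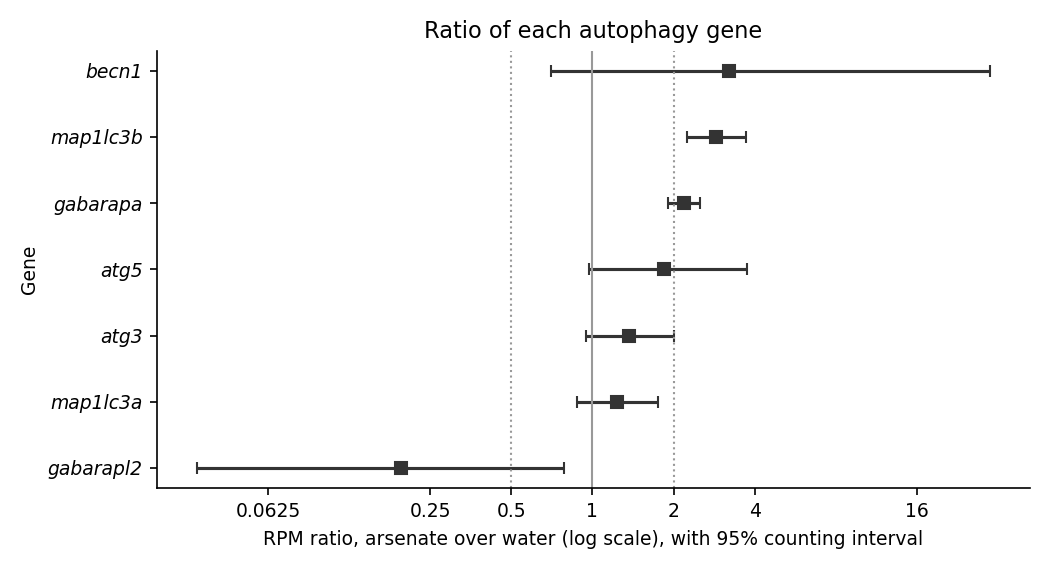
RPM ratio of each core gene, arsenate over water, on a log axis with its 95% counting interval; the solid line marks 1 and the dotted lines mark 0.5 and 2. The intervals of gabarapa (1.91 to 2.52) and map1lc3b (2.24 to 3.71) lie above 1, that of gabarapl2 (0.0340 to 0.783) lies below 1, and the other 4 cross 1.

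Of the 21 pairs among the 7 genes, 10 had a ratio between their arsenate-over-water ratios whose interval excluded 1, without adjustment for the number of pairs. In 6 of these the lower gene was gabarapl2. The other 4 set gabarapa or map1lc3b above map1lc3a or atg3, with gabarapa at 1.598 times atg3 (1.06 to 2.38) and map1lc3b at 2.09 times atg3 (1.31 to 3.30). No pair with becn1 or atg5 apart from those with gabarapl2 could be separated at this depth.

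A 3′ tag is counted once per transcript, so RPM values here are not scaled by transcript length, although tag recovery can differ between genes. In arsenate liver the order by RPM was gabarapa, map1lc3b, map1lc3a, atg3, atg5, becn1 and gabarapl2. Intervals of neighbours in that order overlapped for map1lc3a with atg3 and for becn1 with gabarapl2. In water liver the order was the same down to atg5, followed by gabarapl2 and then becn1. There the neighbours map1lc3b with map1lc3a, map1lc3a with atg3, atg5 with gabarapl2 and gabarapl2 with becn1 overlapped. The genes nearest to gabarapa in log2 of RPM + 1, by distance over the 2 libraries, were pisd at 206 RPM in arsenate liver, against 110 RPM in water liver, brk1 at 189 RPM and 94.5 RPM in the same order, and rnasel3 at 190.0 RPM and 109 RPM. With 2 libraries this likeness describes level and ratio alone.

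**Figure D3:**
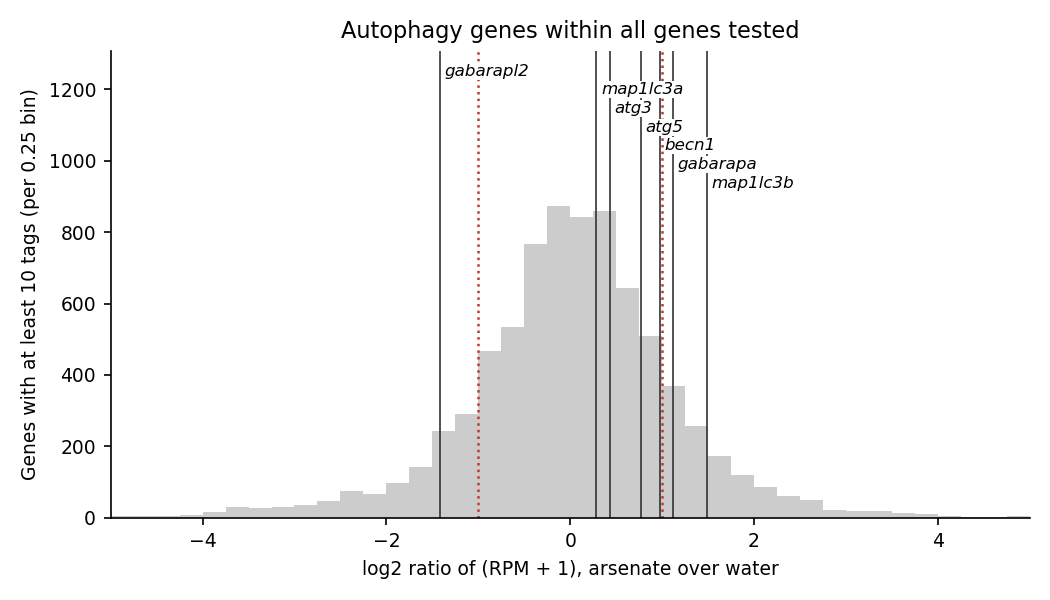
Distribution of the log2 ratio of RPM + 1, arsenate over water, over the 7839 genes with at least 10 tags (grey bars), with a vertical line for each core autophagy gene and dotted red lines at a 2-fold difference. The axis is drawn to 5 on either side of 0, which leaves out 14 genes. The line of map1lc3b, at 1.49, and that of gabarapa, at 1.12, stand to the right of the 2-fold line, and that of gabarapl2, at -1.41, to the left of the lower one.

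The choice of scaling touched the count. With library totals that leave out the 10 most abundant genes on either side, the median log2 ratio of all genes moved up by 0.20, and atg5 and becn1 joined gabarapa and map1lc3b among the genes at least 2-fold higher, giving 4 of 7. Over all genes the same scaling gave 1680 higher and 975 lower, with 63.3% of the calls higher, against 1222 higher and 1125 lower, or 52.1%, with plain totals.

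Other genes of the pathway were taken from 10 lists ordered by role, with 129 genes. Of these, 73 matched a row and 51 had at least 10 tags. By the ratio of RPM + 1, 7 of the 51 were at least 2-fold higher, 1 was lower and 43 were neither, beside 15.6% higher and 14.4% lower over all genes. The median log2 ratio of RPM + 1 over the 51 was 0.39. These lists too were chosen with earlier results of these data known. With totals taken without the 10 most abundant genes, 13 were higher and 1 lower, beside 21.4% higher and 12.4% lower over all genes. With TMM scaling 10 were higher, beside 17.5% of all genes. The genes atg4b, ykt6 and calcoco1a joined the 7. The receptor gene calcoco1a, named after its values were seen, was at 4.75 RPM in arsenate liver, against 1.93 RPM in water liver.

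Cargo receptors held 3 of the 7. The gene tax1bp1b, for a ubiquitin-binding receptor, had 81.4 RPM in arsenate liver, against 17.4 RPM in water liver, 4.69-fold higher (3.43 to 6.55) from 360 and 45 tags. The gene bnip3lb, for a receptor of mitochondria, had 178 RPM in arsenate liver, against 81.8 RPM in water liver, 2.18-fold higher (1.87 to 2.55). The gene fundc2, related to the mitochondrial receptor gene fundc1, was 2.79-fold higher (1.64 to 5.03), at 18.3 RPM in arsenate liver, against 6.56 RPM in water liver. Over all 7839 genes, 52.0% had a ratio above 1, 15.6% were at least 2-fold higher and 5492 genes were neither higher nor lower. Of 11 receptor genes with at least 10 tags, 9 had a ratio above 1, and 8 were within 2-fold on the scale of RPM + 1. Without the added 1, calcoco1a had a ratio of 2.46 (0.904 to 8.36). Among the 9, the intervals of calcoco1a, optn, fundc1, phb2a and phb2b, named after their values were seen, included 1. The receptor gene for ferritin, ncoa4, was lower, at 88.9 RPM in arsenate liver, against 175 RPM in water liver. Its ratio of 0.508 (0.442 to 0.582) was just short of the 2-fold rule.

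Apart from becn1, described above, the genes of the complexes that start the autophagosome were within 2-fold in all 4 cases with at least 10 tags. By the same rule 15.6% of all genes were higher and 14.4% lower. In the kinase complex, the adaptor gene atg13 was at 168 RPM in arsenate liver, against 107 RPM in water liver, a ratio of 1.58 (1.37 to 1.81). Its partner atg101 was at 21.7 RPM in arsenate liver, against 33.2 RPM in water liver, a ratio of 0.655 (0.484 to 0.886). These intervals lay on opposite sides of 1. In the beclin complex, nrbf2b and atg14 had ratios of 1.03 and 0.853 with intervals that included 1.

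In the membrane supply list, which delivers lipid to the growing membrane, 2 of 4 genes with at least 10 tags were higher and none was lower. Over all genes the shares were 15.6% higher and 14.4% lower. The summed level of the 6 matched genes was 256 RPM in arsenate liver, against 252 RPM in water liver. The WIPI-family genes wdr45 and wdr45b were 3.40-fold (1.30 to 11.3) and 2.38-fold (1.36 to 4.41) higher, the first from 29 tags in arsenate liver, against 5 in water liver. Neither passed with a pseudocount of 5. The family member wipi1, named after its values were seen, had a ratio of 0.513 (0.232 to 1.12), with 14 tags in arsenate liver, against 16 in water liver. The gene vmp1, for a lipid-moving protein of the endoplasmic reticulum and the most abundant of the list, was at 231 RPM in arsenate liver, against 236 RPM in water liver (ratio 0.979, 0.885 to 1.08).

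Among the other conjugation genes, the protease gene atg4b, whose product trims Atg8 proteins and releases them from lipid, had 23.3 RPM in arsenate liver, against 11.2 RPM in water liver, a ratio of 2.08 (1.37 to 3.26). The gene atg10, for the E2-like enzyme that joins Atg12 to Atg5, had 4.30 RPM in arsenate liver, against 9.26 RPM in water liver, a ratio of 0.464 (0.240 to 0.884). On the scale of RPM + 1 neither reached the 2-fold rule, while the exact binomial test with a ratio of at least 2-fold named atg4b higher and atg10 lower.

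Genes of fusion with the lysosome all had ratios above 1 where at least 10 tags were counted, in 5 of 5, with none past the 2-fold rule; 52.0% of all genes had a ratio above 1. The membrane-fusion SNARE gene ykt6 had a ratio of 2.12 (1.24 to 3.79), or 1.98 on the scale of RPM + 1. The exact binomial test with a ratio of at least 2-fold named ykt6 higher. The GTPase gene rab7a had a ratio of 1.15 (0.784 to 1.70). Its interval included 1, as did those of vamp8 and vps18, named after their values were seen. Among lysosome genes, 2 of 13 were higher, 1 lower and 10 neither, numbers no larger than the shares over all genes (15.6% higher and 14.4% lower) would give. Ratios above 1 numbered 11 of 13, and the median log2 ratio of RPM + 1 was 0.59. Among the 11, ctsa, ctsd, psap and scarb2a, named after their values were seen, had intervals that included 1. The membrane protein gene lamp2 was at 124 RPM in arsenate liver, against 55.9 RPM in water liver, 2.21-fold higher (1.84 to 2.67). The protease gene ctsla was at 121 RPM in arsenate liver, against 43.97 RPM in water liver, 2.76-fold higher (2.25 to 3.41). The related ctsl.1 was the one gene lower by the 2-fold rule, with 2 tags in arsenate liver, against 54 in water liver. Its ratio was 0.0217 (0.00257 to 0.0824), and tags of cathepsin L copies may be shared. The lysosome list gene hexa, named after its values were seen, had a ratio of 0.496 (0.268 to 0.911), or 0.542 on the scale of RPM + 1. The exact binomial test with a ratio of at least 2-fold named hexa lower. The protease gene ctsba, with the most tags of the list, had a ratio of 1.097 (1.003 to 1.2004).

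**Figure D4:**
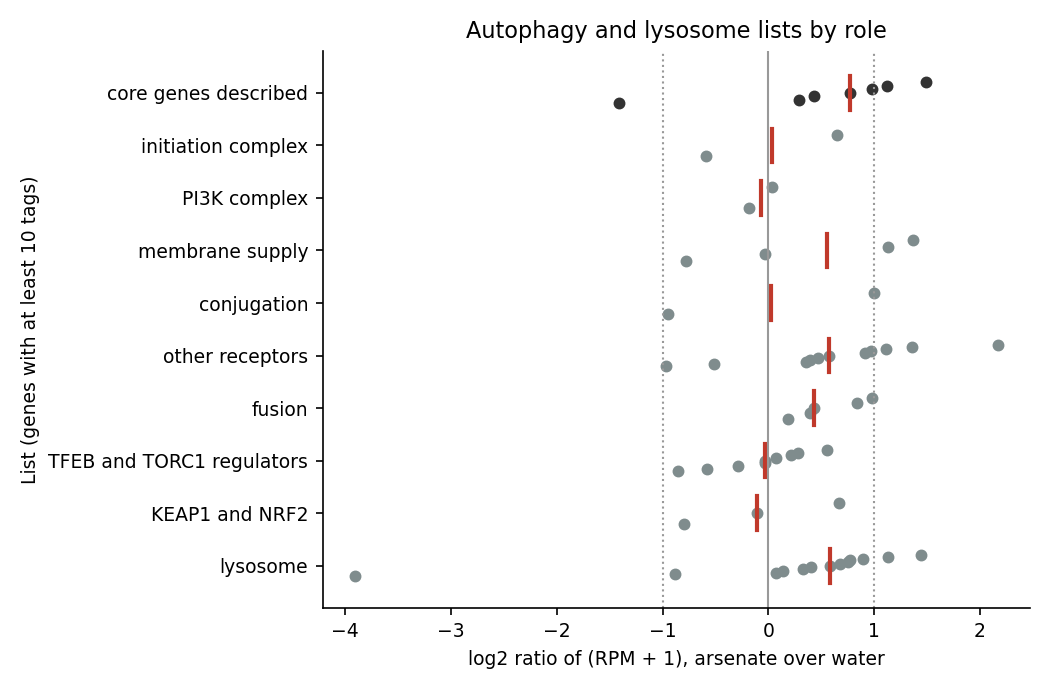
Log2 ratio of RPM + 1, arsenate over water, for each gene with at least 10 tags, with the 7 core genes in the top row and the other lists by role below; red bars are medians and dotted lines mark a 2-fold difference. The receptor, lysosome, membrane supply and fusion lists have medians of 0.57, 0.59, 0.55 and 0.43. The medians of the conjugation list, the regulator lists and the initiation and beclin (PI3K) complexes lie between -0.11 and 0.03.

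Regulators of the pathway showed no gene past the 2-fold rule in either direction among 9 of TFEB and TORC1 control and 3 of KEAP1 and NRF2. By that rule 15.6% of all genes were higher and 14.4% lower, and whether these short lists depart from those shares was not tested. The gene deptor, for an inhibitor of the growth kinase mTOR, was at 134 RPM in arsenate liver, against 244 RPM in water liver, a ratio of 0.550 (0.491 to 0.616). The GTPase gene rhebl1, of the family that activates mTOR, had a ratio of 1.49 (1.13 to 1.98). The zebrafish copies of KEAP1 differed in direction, keap1a at 41.8 RPM in arsenate liver, against 73.3 RPM in water liver (ratio 0.571, 0.464 to 0.703) and keap1b at 20.1 RPM in arsenate liver, against 12.3 RPM in water liver (ratio 1.63, 1.08 to 2.53).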

How the data were processed

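For either library the authors deposited a list of 17991 transcripts whose value column carries the heading TPM. These values are treated as RPM, because within 0.01 tags 100% of the deposited values are whole multiples of the value of 1 tag, and whole tags were recovered from them. Blanks were taken as 0. Per the labels' protocols, a service company built the libraries for the SOLiD system; mapping tool, genome build and filters: not given in the sources used, so no coordinates are printed. Of 10556 rows with an accession, 9463 matched a symbol in the RefSeq gene table of GRCz12tu, 1093 did not, and 7435 rows have a GI number alone. Rows of 1 symbol were summed, and rows without a symbol were counted as genes under their GI number.

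Ratios are arsenate over water in RPM. Their intervals were converted from exact Clopper-Pearson limits of the share of a gene's tags found in arsenate liver; levels have exact Poisson intervals, shares Clopper-Pearson intervals, and pairs of genes conditional odds ratios. PCR copies are not independent molecules, so these may be too narrow. The size rule used a pseudocount of 1, at least 10 tags and 2-fold; the exact binomial test was two-sided, run on all 7839 genes and adjusted by Benjamini-Hochberg at 0.05. Genes and lists were chosen with earlier results of these data known. Named were all core genes found, the 2 genes with most tags of each pathway list, every list gene past the size rule, the top gene of each marker list used, and the 3 genes nearest to gabarapa. Other markers named were chosen after their values were seen.

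Of the 7 marker lists, those of macrophage, erythrocyte, bile duct and enterocyte had summed levels of 361, 324, 5476 and 148 RPM in the arsenate library and 490, 374, 1691 and 295 RPM in the water library. Their most abundant genes were lgmn, hbba1, krt18a.1 and apoa4b.2. The macrophage and bile duct sums hold genes that differ in direction. Ratios were 1.69 for lgmn and 0.166 for cd74b among macrophage markers, and 4.57 for krt18a.1 and 0.869 for anxa4 among bile duct markers. Of the 5 erythrocyte and 3 enterocyte markers with at least 10 tags, none had a ratio above 1. The enterocyte ratios were 0.0690 for fabp2, 0.165 for vil1 and 0.580 for apoa4b.2. Alternatives used edgeR 4.0.16 (TMM factors) and DESeq2 1.42.0 (size factors) in R 4.3.3; the rest ran in Python 3.11.15 with scipy 1.17.1. The steps were tested on simulated tags drawn with counting error only, so that test does not cover variation between fish or PCR copies.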

Additional observations from a re-analysis of the deposited data

How the results depend on the processing

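The ratio of each of the 7 core genes stayed on its side of 1 in 28 of 28 comparisons over 4 other scalings, and inside its counting interval in 27; gabarapa was at 2.54 with totals taken without the 10 most abundant genes. Counts of core genes at least 2-fold higher were 4 with that scaling and 4 at 1.5-fold, against 2. Counts lower were 0 with a pseudocount of 5 and 0 with at least 50 tags, against 1. Over all genes 7.78% were lower with a pseudocount of 5 and 12.7% with at least 50 tags. For the other pathway genes, those higher numbered 13 without the 10 most abundant genes and 19 at 1.5-fold, against 7. Over all genes the shares were 21.4% higher and 12.4% lower with that scaling, and 27.8% higher and 24.4% lower at 1.5-fold. Other pathway genes that were lower numbered 2 with a pseudocount of 0.1, 3 with at least 1 tag and 3 with the exact binomial test, against 1. They numbered 3 with totals taken without pancreas and testis markers and 8 at 1.5-fold. Over all genes the shares lower were 17.2% with a pseudocount of 0.1 and 11.1% with at least 1 tag. They were 13.6% with the exact binomial test and 15.0% with the marker-free totals. Each core gene has 1 row, so the choice of row could not alter its ratio. By construction the looser rules admit more genes, a pseudocount of 5 shrinks ratios of low genes, and rescaling multiplies all ratios by 1 factor. The marker-free totals were chosen after the data were seen. Depth limits becn1 and gabarapl2, with 13 and 12 tags in all. No paired analysis was possible because each condition has 1 library, and no setting addresses variation between fish.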
